A study of Mus musculus with 28 samples.

Results

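Hepatic gene expression was compared between mice gavaged once daily for 7 days with nicotinamide mononucleotide (NMN) at 1340 mg/kg/d and mice gavaged with water on the same schedule. The comparison used 8 of the 28 libraries of the study, chosen by their labels as the liver libraries of this schedule, 4 with NMN and 4 controls. All mice were male C57BL/6 animals aged 8 weeks, and the study names the strain C57BL6J. According to the labels none carried a transgene or a deletion, and the agent in the gavage was the only labelled difference between the groups. The study asked whether short-term dosing with NMN is toxic, and it also sequenced kidney from this schedule and both organs from a 2680 mg/kg/d schedule with its own 3 NMN and 3 water mice. Each library was polyA-selected RNA of 1 liver, so that a transcript level averages all cell types of the organ, and fewer cells of a type cannot be told apart from less RNA per cell.

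NMN is converted into NAD+ by the NMNAT enzymes, and NAD+ carries electrons for dehydrogenases and is consumed by sirtuins, poly(ADP-ribose) polymerases and NAD+ glycohydrolases. Hepatocytes, the main cell type of the liver, adjust their transcripts to feeding, fasting and stress through nuclear receptors. PPAR-alpha induces genes of fatty acid handling, the glucocorticoid receptor induces genes of glucose and stress metabolism, and pulsatile growth hormone maintains the male pattern of liver transcripts.

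Between 12688324 and 16455228 reads were counted on genes per library. Alb, which encodes the plasma protein albumin, stood between 62172 and 89074 CPM (counts normalised to the scaled size of the library), and all 10 hepatocyte markers were expressed in every library, so the libraries matched their label. Alb had a log2 fold change of 0.06 ± 0.15 (SE, adjusted p = 0.962 from edgeR). NMN replicate 4 stood apart from the other libraries. Of the reads in its count file, 12.8% lay outside annotated genes against 4.91% to 7.44% in the other 7 libraries, and 5.10% were ambiguous between genes against 3.09% to 3.59%. Over 6 library measures, which also covered the total count, the mitochondrial share, the share of the 50 most abundant genes and the share of reads without a unique position, the groups overlapped, and the lowest unadjusted p was 0.229 (exact permutation test, two-sided). With 4 against 4 mice the smallest p such a test can give is 0.0286, and 1 measure at that p would have 0.171 after adjustment over the 6, so the test could miss a difference. The first principal component of the log2 CPM values held 27.7% of the variance and ran from water replicate 1 to NMN replicate 4, without separating the groups. On the second, which held 18.2%, NMN replicates 1, 2 and 3 lay below 0, and all water mice and NMN replicate 4 lay above it.

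Of 12449 genes with enough counts, 2 (0.0161%) passed the quasi-likelihood test of edgeR at an adjusted p under 0.05, and both rose with NMN. Scara5, a scavenger receptor gene, stood at 7.99, 4.40, 4.31 and 3.78 CPM in the water mice and at 29.5, 18.4, 15.2 and 23.8 CPM in the NMN mice. Il1r1, the gene of the signalling interleukin 1 receptor, stood at 22.8, 24.5, 29.4 and 44.1 CPM with water and at 85.9, 146, 119 and 87.4 CPM with NMN. The groups did not overlap for either gene, and NMN replicate 4 lay within the range of the other NMN mice. Without NMN replicate 4, 18 genes were called instead of 2, among them both of these. Without water replicate 2 or NMN replicate 2 none was called, although 736 and 566 genes still had an unadjusted p under 0.05. Without water replicate 3 neither gene was called, and Cyp4a31 was the only call. Scara5 was also lost without water replicate 4 and with all 14 liver libraries in one fit, and Il1r1 without NMN replicate 3.

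At an adjusted p under 0.10 edgeR gave 18 genes, 0.145% of those tested, of which 17 were higher with NMN and only Apoa4 was lower. An unadjusted p under 0.05 was reached by 854 genes (6.86%), of which 438 (3.52%) were higher and 416 (3.34%) lower with NMN. The NMN and the water mice did not overlap for 439 genes (3.53%), 222 of them higher (1.78%) and 217 lower (1.74%). The Wald test of DESeq2, run on all 22725 genes with a count rather than on the filtered ones, called 74 genes, 45 higher and 29 lower. All of them were among the 12449 genes tested in edgeR (0.594%, 0.361% and 0.233% of these). On the 12449 genes alone DESeq2 called 84, the 74 included. The median log2 fold change over all tested genes was -0.00, the median of the absolute values was 0.17, and 49.5% of the genes were higher with NMN. The biological coefficient of variation between mice was 25.0%.

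The genes described next are the 12 in each direction with the smallest edgeR p among those without overlap between the groups, beyond Scara5, Il1r1, the Cyp4a genes and the genes of fatty acid and cholesterol metabolism. None of these 24 passed the adjusted threshold in edgeR, where their adjusted p lay between 0.0659 and 0.273, and all 24 passed it in DESeq2. That their groups do not overlap was part of how they were chosen and is no result.

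Plin4, Vnn1 and Aldh3a2, which act in lipid storage, coenzyme A recycling and aldehyde oxidation, are described together. Plin4, the gene of a lipid droplet coat protein (ENSMUSG00000002831.13, overlapping Hdgfl2), stood at 1.27, 0.733, 1.34 and 2.97 CPM in the water mice and at 6.39, 21.4, 13.7 and 8.45 CPM in the NMN mice, a log2 fold change of 2.97 ± 0.47 (SE, adjusted p = 0.0659). Vnn1, which encodes the enzyme pantetheinase (ENSMUSG00000037440.8), stood at 10.3, 14.2, 14.4 and 23.5 CPM with water and at 43.7, 46.1, 58.3 and 31.0 CPM with NMN, a log2 fold change of 1.52 ± 0.25. Aldh3a2, the gene of fatty aldehyde dehydrogenase, had a log2 fold change of 0.89 ± 0.16 (SE, adjusted p = 0.0899), with 129 to 171 CPM in the water mice and 209 to 345 CPM in the NMN mice. NMN replicate 4 had the lowest Vnn1 level of its group and NMN replicate 1 the lowest Plin4 and Aldh3a2 levels.

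Fkbp5, the gene of a co-chaperone that limits the glucocorticoid receptor and is itself a classical glucocorticoid target (ENSMUSG00000024222.17), stood at 31.3, 73.9, 47.4 and 53.6 CPM in the water mice and at 145, 173, 136 and 111 CPM in the NMN mice. Its log2 fold change was 1.45 ± 0.23 (SE, adjusted p = 0.0659). Junb, a subunit of the AP-1 transcription factor (ENSMUSG00000052837.6, overlapping Prdx2), stood at 24.3, 29.9, 35.1 and 42.6 CPM with water and at 88.2, 104, 67.4 and 60.9 CPM with NMN, a log2 fold change of 1.28 ± 0.20 (SE, adjusted p = 0.0659). The counting took no account of strand, so reads that fall in both Junb and Prdx2 are ambiguous between genes and may be missing from both counts.

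Abcc3, an export pump for bile salts and glucuronides in the basolateral membrane of hepatocytes, stood at 152, 168, 179 and 135 CPM in the water mice and 262, 311, 274 and 229 CPM in the NMN mice. It had a log2 fold change of 0.76 ± 0.14 (SE, adjusted p = 0.0801). The noncoding 1700028E10Rik, which overlaps D730045B01Rik and Gm42906, stood at 6.57 to 10.9 CPM with water and at 16.4 to 25.6 CPM with NMN, a log2 fold change of 1.23 ± 0.20. For the other higher genes, too, groups without overlap were part of the choice. Fbf1, a gene of the centriole and cilium base, had a log2 fold change of 1.59, Tmc7, a transmembrane channel-like gene, of 1.75, Tacc2, a gene of a centrosomal coiled-coil protein, of 1.16, and the transmembrane protein gene Tmem98 of 1.08 (adjusted p = 0.0801 to 0.0923). Gm15502 had 0, 1, 2 and 1 counts in the water mice and 12, 25, 15 and 13 counts in the NMN mice, and no fold change is given because its water libraries lay below 3 counts. It reached the level required for naming, a mean of 1 CPM, only in the NMN group.

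Apoa4 and Lect2, genes of proteins that the liver secretes, are given first among the lower genes. Apoa4, which encodes an apolipoprotein (ENSMUSG00000032080.6, overlapping Gm10680 and Gm47528), stood at 57.8, 66.1, 91.8 and 59.5 CPM in the water mice and at 27.6, 32.1, 29.9 and 39.1 CPM in the NMN mice, a log2 fold change of -1.10 ± 0.17 (SE, adjusted p = 0.0659). Lect2, the gene of a hepatokine, stood at 129, 113, 113 and 107 CPM with water and at 83.6, 77.7, 62.0 and 73.2 CPM with NMN, a log2 fold change of -0.64 ± 0.13 (SE, adjusted p = 0.138). For Lect2 NMN replicate 4 lay within the range of the other NMN mice, and for Apoa4 it was the highest of them.

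Cyp2u1, a cytochrome P450 gene that overlaps 4930534D22Rik, stood at 94.6, 80.5, 40.2 and 66.9 CPM with water and at 34.8, 21.6, 31.7 and 37.8 CPM with NMN, a log2 fold change of -1.17 ± 0.25 (SE, adjusted p = 0.205). Hes6, a gene of a basic helix-loop-helix factor, stood at 228, 105, 86.1 and 120 CPM with water and at 58.9, 50.6, 62.9 and 63.7 CPM with NMN, a log2 fold change of -1.19 ± 0.26 (SE, adjusted p = 0.273). Water replicate 1 had the highest level of both genes. Cela1, an elastase gene, stood at 37.7, 33.7, 19.4 and 26.4 CPM with water and at 18.3, 7.55, 13.2 and 8.22 CPM with NMN, a log2 fold change of -1.31 ± 0.29 (SE, adjusted p = 0.251). Of the other 7 pancreatic acinar cell markers, Prss2, Cpa1, Cpb1, Pnlip and Amy2a5 had no count in any of the 8 libraries, and Cela2a and Ctrb1 stayed at or below 1.67 CPM.

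The other lower genes had log2 fold changes between -1.74 and -0.61. They were the glutathione transferase gene Gstp3 (-0.96), whose paralogs may share its reads, the D-aspartate oxidase gene Ddo (-0.83), the short-chain dehydrogenase gene Sdr9c7 (-0.76), the kinase gene Map2k3 of the p38 pathway (-0.65), the mitochondrial fission gene Mtfp1 (-0.61), the interferon-inducible Oasl1 (-1.09) and 3110082I17Rik (-1.74). Their adjusted p in edgeR lay between 0.134 and 0.253.

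**Figure D1:**
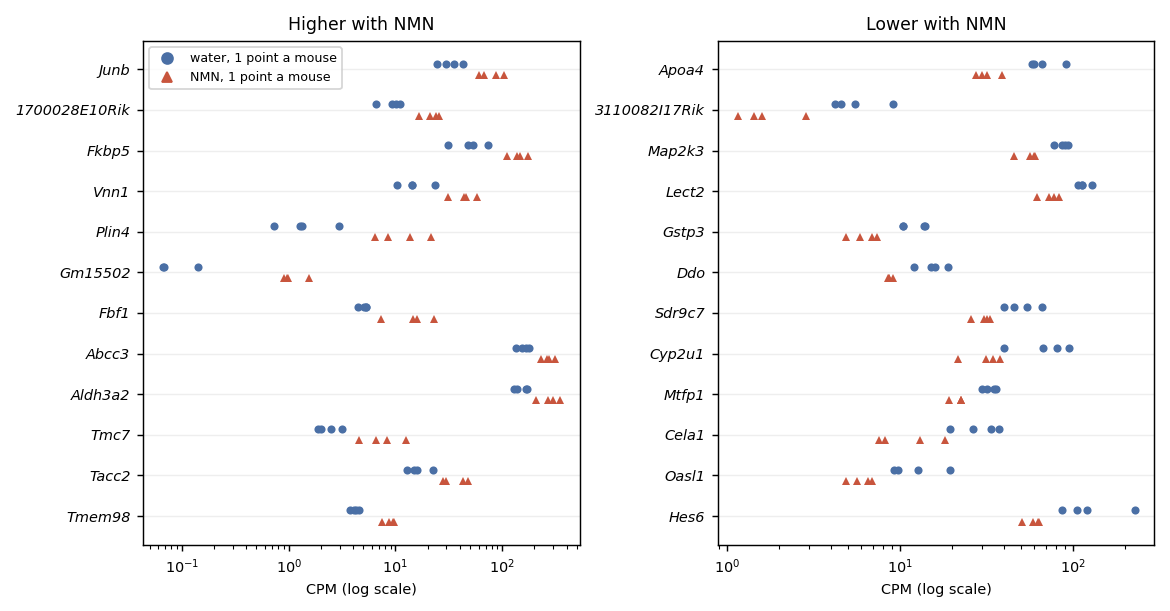
CPM on a log axis in each of the 4 water mice (circles) and 4 NMN mice (triangles) for the 12 higher and 12 lower genes with the smallest p among those without overlap. For each gene the groups stand apart, which was part of the choice, as for Fkbp5, with 31.3 to 73.9 CPM in the water mice and 111 to 173 CPM in the NMN mice. The water mouse without a Gm15502 count is not drawn.

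The members of 38 lists of genes were then followed, and the values after ± are standard errors of the fit. The lists are described by how many tested members were higher or lower and by their median log2 fold change, beside -0.00 and 49.5% higher over all tested genes, and their members are not independent of each other. Leaving out a single mouse moved the median by more than 1.5 times or changed its sign for 37 of the 38 lists. Only Scara5 and Il1r1 among all list members passed the adjusted threshold in edgeR.

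**Figure D2:**
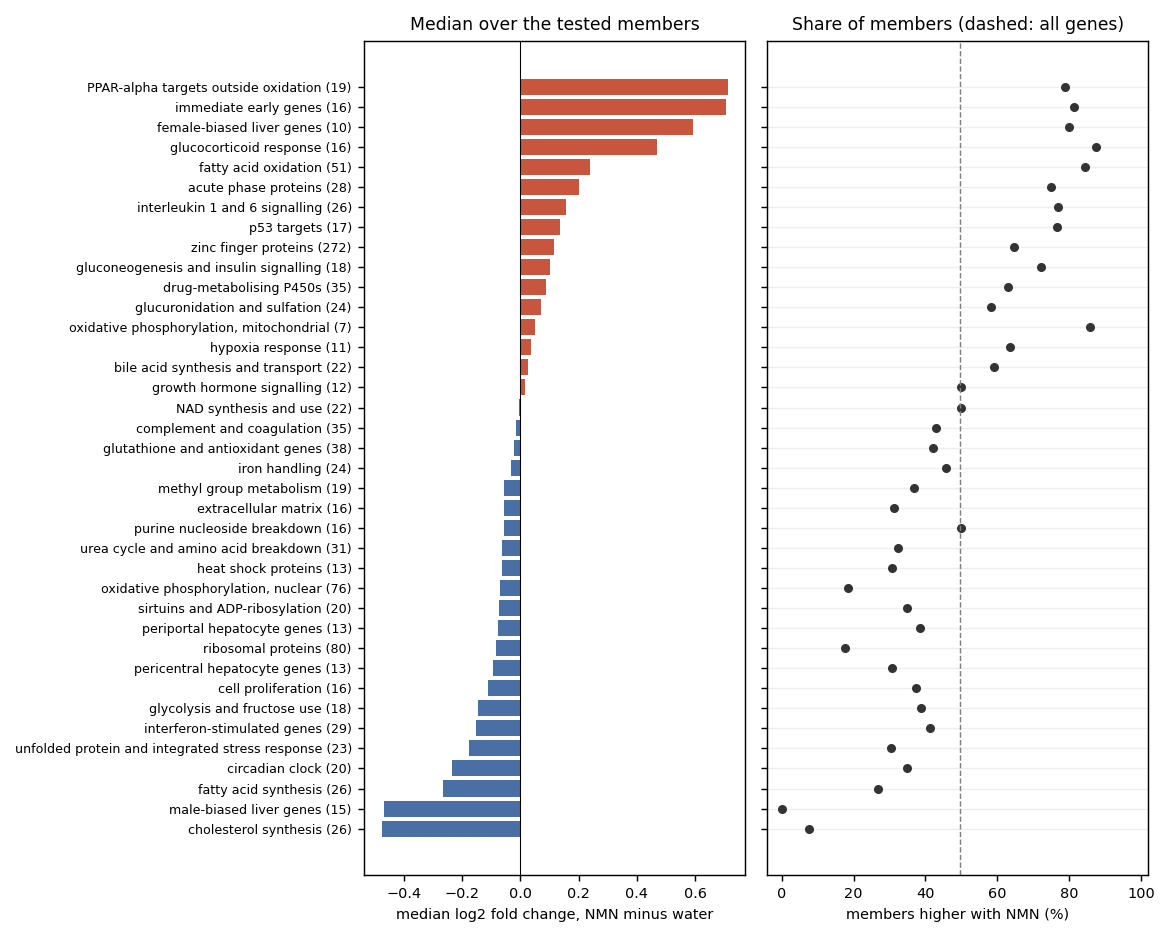
Median log2 fold change of NMN minus water over the tested members of each list (left, bars from 0, number of tested members in brackets) and the percent of members that were higher with NMN (right, dashed line at 49.5% for all tested genes). The PPAR-alpha targets (0.71), the immediate early genes (0.71) and the female-biased genes (0.59) had the highest medians, and cholesterol synthesis (-0.48) and the male-biased genes (-0.47) the lowest.

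PPAR-alpha targets outside fatty acid oxidation were mostly higher. Of 19 tested members, 15 were higher and 4 lower, 7 had an unadjusted p under 0.05 and were higher (3.52% of all tested genes did so), 4 were higher without overlap between the groups (1.78% of all tested genes), and the median log2 fold change was 0.71. Retsat, which encodes retinol saturase and overlaps Gm45053, stood at 234, 293, 180 and 397 CPM in the water mice and at 494, 871, 804 and 619 CPM in the NMN mice, a log2 fold change of 1.34 ± 0.25 (SE, adjusted p = 0.127). Slc22a5, the gene of the carnitine transporter, stood at 11.6, 17.5, 20.7 and 18.3 CPM with water and at 24.4, 36.8, 34.7 and 40.3 CPM with NMN, a log2 fold change of 1.00 ± 0.20 (SE, adjusted p = 0.132). Plin4 and Vnn1, above, also belong to this list. The hepatokine gene Fgf21 stayed at or below 4.88 CPM in every mouse and had a log2 fold change of 1.76 ± 0.87. Angptl4, an inhibitor of lipoprotein lipase, stood at 319, 333 and 206 CPM in NMN replicates 1 to 3 but at 54.7 CPM in replicate 4, near the lowest water mouse at 52.5 CPM. The fatty acid binding protein genes Fabp1 (-0.20) and Fabp2 (-0.30), Apoa5 (-0.20) and the FGF21 co-receptor gene Klb (-0.14) had log2 fold changes below 0. The mean log2 CPM over the list was 5.80, 6.01 and 6.07 in NMN replicates 1 to 3 and 5.23 in replicate 4, against 5.01, 5.14, 4.996 and 5.24 in the water mice. Without NMN replicate 2 the median was 0.47, and without any other single mouse it lay between 0.53 and 0.76.

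Genes of the glucocorticoid response were higher for 14 of 16 members, with a median log2 fold change of 0.47, and 3 were higher with an unadjusted p under 0.05 (3.52% of all tested genes). Zbtb16, a zinc finger factor gene induced by the glucocorticoid receptor (ENSMUSG00000066687.5), stood at 3.80, 1.67, 3.25 and 3.72 CPM in the water mice and at 11.5, 35.0, 47.3 and 12.5 CPM in the NMN mice. Its log2 fold change was 3.10 ± 0.53 (SE, adjusted p = 0.134), and the groups did not overlap. In all, 2 members of the list were higher without overlap (1.78% of all tested genes). Klf9, another receptor target, stood at 80.2 to 120 CPM with water and at 160, 164, 147 and 97.1 CPM with NMN, a log2 fold change of 0.45 ± 0.18 (SE, adjusted p = 0.656). The log2 fold change was 0.12 for Tsc22d3, 0.04 for Per1, 0.22 for the tyrosine aminotransferase gene Tat and -0.07 for the kinase gene Sgk1. The receptor gene Nr3c1, the other member below 0, had one of -0.24. The metallothionein genes Mt1 and Mt2, which bind zinc and copper and also belong to the acute phase list, overlapped between the groups. Mt2 stood at 3.09, 23.9, 118 and 37.4 CPM in the water mice and at 569, 533, 107 and 78.2 CPM in the NMN mice, so NMN replicates 1 and 2 lay above all others while replicates 3 and 4 lay within the range of the water mice. Without NMN replicate 1 the median of the list was 0.21, and without NMN replicate 4 it was 0.55.

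Promoter sequences are shown for Fkbp5, the leading glucocorticoid target, and for Sgk1, the list member whose window held a receptor motif. They were read from RefSeq (build GRCm38.p6), from 250 bases before to 50 after the gene's start. The Fkbp5 window lies at chr17:28486100-28486399 on the minus strand, and the capitals mark an E-box, CACGTG, the motif bound by clock factors and related proteins.
Fkbp5: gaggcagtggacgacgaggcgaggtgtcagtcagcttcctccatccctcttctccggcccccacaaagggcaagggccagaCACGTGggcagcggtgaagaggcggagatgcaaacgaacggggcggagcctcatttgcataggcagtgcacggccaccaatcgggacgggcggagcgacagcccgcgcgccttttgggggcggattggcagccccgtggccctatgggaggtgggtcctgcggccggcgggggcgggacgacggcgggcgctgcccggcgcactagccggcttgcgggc
The Sgk1 window lies at chr10:21993640-21993939 on the plus strand, and the capitals mark a palindromic glucocorticoid response element, which is AGAACA and TGTTCT separated by 3 bases.
Sgk1: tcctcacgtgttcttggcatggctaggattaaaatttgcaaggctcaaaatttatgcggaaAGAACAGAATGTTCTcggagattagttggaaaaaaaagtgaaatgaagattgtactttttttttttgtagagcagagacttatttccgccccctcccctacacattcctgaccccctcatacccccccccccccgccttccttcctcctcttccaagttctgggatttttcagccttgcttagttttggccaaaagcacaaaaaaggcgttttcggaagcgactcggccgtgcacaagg
The glucocorticoid response element, searched on both strands, was present in 3 of 32851 RefSeq promoter windows of this length (0.00913%), and Sgk1 was the only one of the 13 glucocorticoid response genes with a window that held it. The E-box, which is its own reverse complement, was present in 7.15% of all windows and in 5 of the 20 leading genes with a window, namely Fkbp5, Aldh3a2, Tmem98, 3110082I17Rik and Ddo. The antioxidant response element TGACNNNGC was in 12.4% of all windows and in 3 of these 20. The PPAR response element (AGGTCA repeated after 1 base) was in 0.0396% of all windows and in none of the 17 PPAR-alpha targets with a window, and the D-box TTATGTAA was in 0.938% of all windows and in none of the 20. Windows were not found for Vnn1, Gm15502, Abcc3 and Cyp2u1. A match describes the letters of these windows only.

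Immediate early genes, which cells transcribe within minutes of a stimulus, were higher for 13 of 16 members, with a median log2 fold change of 0.71. Besides Junb, Fosl2 did not overlap between the groups, and these were the 2 members that were higher without overlap (1.78% of all tested genes). Fosl2, another AP-1 subunit, stood at 2.77, 5.33, 6.22 and 7.30 CPM with water and at 7.89, 13.6, 11.7 and 11.7 CPM with NMN, a log2 fold change of 1.05 ± 0.28 (SE, adjusted p = 0.358). Gadd45b, a stress-inducible gene, had a log2 fold change of 2.04 ± 0.75, which was 1.30 without NMN replicate 2 and 2.86 without water replicate 2. Myc (-1.34), Gadd45a (-0.48) and Ier2 (-0.21) had log2 fold changes below 0. The list mean of NMN replicate 4, at 2.51, lay within the water mice, which stood at 3.31, 2.65, 2.42 and 2.90. Without NMN replicate 1 the median of the list was 0.30, and without water replicate 1 it was 1.09.

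Interleukin 1 and 6 signalling genes were higher for 20 of 26 tested members, with a median log2 fold change of 0.16, and 5 of them had an unadjusted p under 0.05 and were higher (3.52% of all tested genes). Besides Il1r1, Il6ra, the interleukin 6 receptor gene that overlaps Gm42809, stood at 23.3, 55.1, 45.7 and 55.0 CPM in the water mice and at 80.7, 105, 100 and 65.3 CPM in the NMN mice, a log2 fold change of 0.97 ± 0.25 (SE, adjusted p = 0.367). Stat3, the transcription factor downstream of that receptor, which overlaps Stat5a, stood at 73.3, 90.2, 107 and 137 CPM with water and at 163, 150, 142 and 163 CPM with NMN, a log2 fold change of 0.60 ± 0.17 (SE, adjusted p = 0.425). The groups did not overlap for these receptors and Stat3, the 3 members that were higher without overlap (1.78% of all tested genes). The mean log2 CPM over the list, which includes Il1r1, was 3.90 to 4.25 with water and 4.31 to 4.55 with NMN, also without overlap. The median without NMN replicate 4 was 0.24.

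The acute phase genes, most of them for secreted proteins, which interleukins 1 and 6 induce in hepatocytes, were higher for 21 of 28 members, with a median log2 fold change of 0.20. The groups overlapped for all 28, and only 3.53% of all tested genes were without overlap. Saa1, the gene of serum amyloid A1, stood at 131, 223, 6568 and 288 CPM in the water mice and at 913, 418, 104 and 1231 CPM in the NMN mice. Water replicate 3 therefore lay above every NMN mouse and NMN replicate 3 below every water mouse. Lcn2 (10.4, 13.4, 257 and 26.2 CPM with water) and Orm2 (22.4, 28.7, 398 and 34.0 CPM) were likewise highest in water replicate 3. Without water replicate 3 the median of the list was 0.48, without water replicate 1 it was 0.04, without water replicate 2 it was 0.13, without NMN replicate 1 it was 0.09 and without NMN replicate 4 it was 0.10. Crp (0.32), Steap4 (0.61) and Serpina3m (0.54, which overlaps Serpina3k) had an unadjusted p under 0.05 and were higher, and Serpina3k (-0.41) was lower, with adjusted p of 0.546 to 0.690. Over all tested genes 3.52% were higher and 3.34% lower at this unadjusted p. Without NMN replicate 1 the log2 fold change of Serpina3m was 0.30. Of 35 complement and coagulation genes, 15 were higher and 20 lower, with a median of -0.02.

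**Figure D3:**
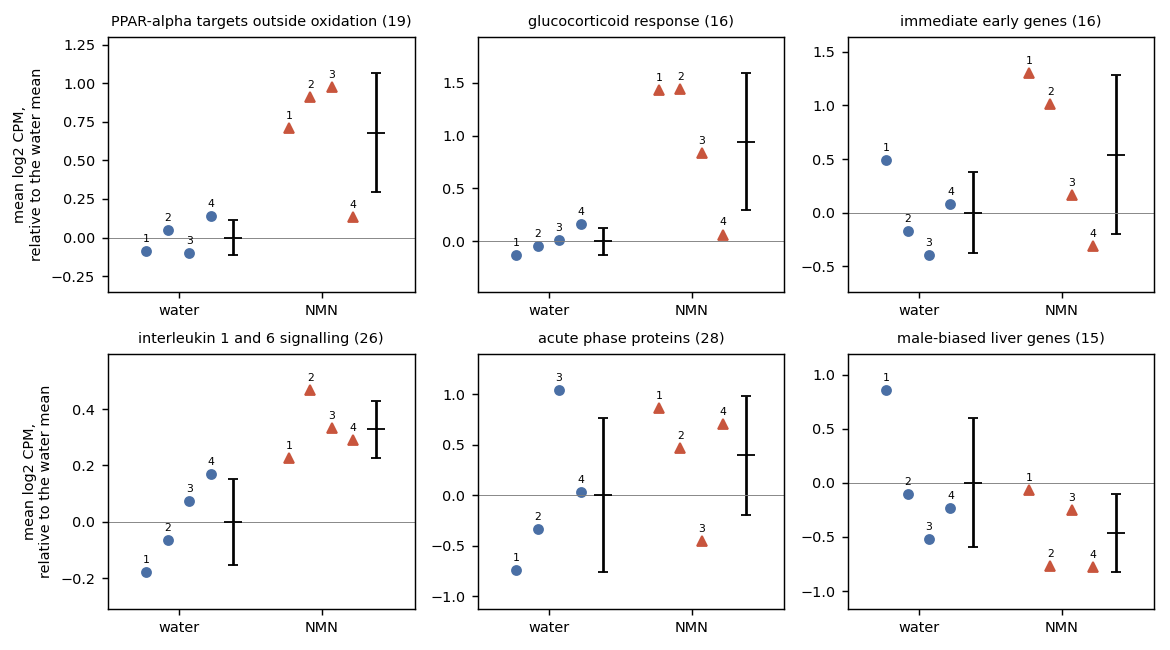
Mean log2 CPM over the tested members of 6 lists in each mouse, relative to the mean of the water mice; circles are water and triangles NMN, numbered by replicate, and the bars beside them give the mean and SD of 4 mice. NMN replicate 4 lies among or next to the water mice for the PPAR-alpha targets, the glucocorticoid response and the immediate early genes, and the groups stand apart only for interleukin 1 and 6 signalling among these 6.

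Targets of p53 were higher for 13 of 17 members, with a median log2 fold change of 0.14. The list shares Cdkn1a with the glucocorticoid response, Btg2 with the immediate early genes and Sesn2 with a stress response list below. Dusp1 belongs to both the glucocorticoid response and the immediate early genes, so these lists are not independent. Sesn2, a stress-inducible regulator of nutrient signalling, stood at 5.78, 6.06, 5.09 and 4.39 CPM in the water mice and at 8.79, 11.5, 10.4 and 8.75 CPM in the NMN mice, a log2 fold change of 0.89 ± 0.21 (SE, adjusted p = 0.251). Gdf15, the gene of a stress hormone, stood at 6.09, 5.66, 3.11 and 5.20 CPM with water and at 24.0, 14.4, 7.00 and 6.49 CPM with NMN, a log2 fold change of 1.37 ± 0.41 (SE, adjusted p = 0.465), which was 0.89 without NMN replicate 1. The groups did not overlap for these 2 members (1.78% of all tested genes were higher without overlap). Cdkn1a, the best known target and an inhibitor of the cell cycle, stood at 48.3, 2.53, 0.424 and 1.82 CPM with water and at 66.6, 103, 47.4 and 1.06 CPM with NMN, so that water replicate 1 resembled NMN replicates 1 to 3 and NMN replicate 4 resembled the other water mice. Bbc3, which promotes apoptosis, had a log2 fold change of -0.69 ± 0.23.

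Male-biased liver genes, which growth hormone pulses maintain, had log2 fold changes below 0 for all 15 members, with a median of -0.47, and 5 of them had an unadjusted p under 0.05, as 3.34% of all tested genes did in this direction. Nudt7, the gene of a peroxisomal CoA diphosphatase, stood at 969, 646, 607 and 673 CPM in the water mice and at 565, 330, 544 and 420 CPM in the NMN mice, a log2 fold change of -0.64 ± 0.19 (SE, adjusted p = 0.462). Hsd3b5, a steroid dehydrogenase gene of male liver, stood at 388, 422, 319 and 273 CPM with water and at 322, 167, 206 and 159 CPM with NMN, a log2 fold change of -0.71 ± 0.22 (SE, adjusted p = 0.478). Cyp2u1, above, is the third member that was lower without overlap beside Nudt7 and Ugt2b38 (1.74% of all tested genes). Of the 15 members 11 were highest in water replicate 1, where Selenbp2 stood at 3145 CPM against 633 to 1021 CPM in the other water mice and Cyp7b1 at 581 CPM against 129 to 162 CPM. Without water replicate 1 the median was -0.15. Of 10 tested female-biased genes 8 were higher, with a median of 0.59, which was 0.27 without water replicate 1, 0.33 without NMN replicate 1, 0.19 without NMN replicate 2 and 0.14 with at least 10 counts required in every library. Cyp2b9 stood at 0.158, 0.333, 1.70 and 1.01 CPM with water and at 1.05, 6.63, 18.4 and 4.60 CPM with NMN, and Cyp17a1 had a log2 fold change of -1.30 ± 0.35 (SE, adjusted p = 0.365). The 12 genes of growth hormone signalling were split evenly, with a median of 0.02. Cish, a feedback inhibitor that growth hormone pulses induce, stood at 2.61, 8.93, 41.4 and 51.2 CPM with water and at 13.9, 3.50, 2.70 and 6.86 CPM with NMN.

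The genes that make and use NAD+ showed no common direction. Of 22 members, 11 were higher and 11 lower, with a median of -0.00. The salvage enzyme genes Nampt (-0.21 ± 0.24), Nmnat1 (0.03 ± 0.16) and Nmrk1 (-0.52 ± 0.30) and the nicotinamide methyltransferase gene Nnmt (-0.05 ± 0.42) had adjusted p of 0.802 to 0.994. Without single mice Nmrk1 lay between -0.75 and -0.28, and the other 3 changed sign. In the pathway from tryptophan, Tdo2, the entry enzyme, stood at 1295, 1281, 1362 and 1131 CPM in the water mice and at 1490, 1813, 1658 and 1595 CPM in the NMN mice, a log2 fold change of 0.37 ± 0.12 (SE, adjusted p = 0.504). Acmsd, which diverts the pathway away from NAD+ and overlaps 2900009J06Rik, had a log2 fold change of -0.61 ± 0.24 (-0.40 without water replicate 1), and Qprt, which commits it to NAD+, one of -0.34 ± 0.15. Sirtuins and ADP-ribosylation enzymes were higher for 7 of 20 members, with a median of -0.07. Sirt1, which overlaps Gm16145, stood at 4.59 to 10.04 CPM with water and at 6.61, 15.1, 13.9 and 14.6 CPM with NMN. Among 19 genes of methyl group metabolism, 12 were lower, with a median of -0.05 and log2 fold changes of -0.44 for Shmt1 and Gamt, and purine nucleoside breakdown was split 8 to 8, with a median of -0.06.

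Gluconeogenesis and insulin signalling had 13 of 18 members higher and a median of 0.10. Foxo1, a gene of a transcription factor that insulin restrains, which overlaps Gm20402, had a log2 fold change of 0.51 ± 0.19 (SE, adjusted p = 0.600), and Igfbp1 stood at 828 and 400 CPM in NMN replicates 1 and 2 but at 85.4 and 28.4 CPM in replicates 3 and 4, against 13.1 to 160 CPM with water. Glycolysis and fructose use had 11 of 18 members lower and a median of -0.15. Pklr, which encodes the liver pyruvate kinase and overlaps Hcn3, stood at 100, 164, 132 and 195 CPM with water and at 59.4, 51.2, 121 and 84.2 CPM with NMN, a log2 fold change of -0.90 ± 0.28 (SE, adjusted p = 0.509). Of 31 genes of the urea cycle and amino acid breakdown, 21 were lower, with a median of -0.06. Ass1, the argininosuccinate synthase gene, stood at 2035, 2228, 2139 and 2081 CPM with water and at 1665, 1692, 1550 and 1624 CPM with NMN, a log2 fold change of -0.38 ± 0.11 (SE, adjusted p = 0.446). The groups did not overlap for this gene, and in all 3 members of its list were lower without overlap (1.74% of all tested genes). The aminotransferase genes Gpt (0.07 ± 0.13) and Got1 (-0.15 ± 0.19) overlapped.

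Drug-metabolising P450 genes had 22 of 35 members higher and a median of 0.09, glucuronidation and sulfation genes 14 of 24 and 0.07, and glutathione and antioxidant genes 16 of 38 and -0.02. Cyp2c37, a P450 gene with close paralogs, had a log2 fold change of 0.61 ± 0.16 (SE, adjusted p = 0.338), the xenobiotic receptor gene Ahr (overlapping Gm48236) of 0.43 ± 0.14, Gsta2 of 0.83 ± 0.22 (SE, adjusted p = 0.342), Sult2a8 of 0.41 ± 0.13 and Ugt2b1 of -0.64 ± 0.19 (-0.42 without water replicate 1). Ugt2b1, Sult2a8, Gsta2 and Ahr did not overlap between the groups. In all, 1 member of the P450 list, the receptor gene Ahr, was higher and 1 lower without overlap. For glucuronidation and sulfation these numbers were 1 and 2, and for glutathione and antioxidant genes 1 and 0. Over all tested genes, 1.78% were higher and 1.74% lower without overlap.

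The other lists, apart from those of lipid metabolism, had medians between -0.24 and 0.12. Interferon-stimulated genes were lower for 17 of 29 members (median -0.15), with Oasl1, Oasl2 and Tap1 (overlapping Psmb9) lower without overlap (1.74% of all tested genes), and the median was 0.02 without water replicate 4. Clock genes were lower for 13 of 20 (-0.24), but Clock itself stood at 32.8 to 41.2 CPM with water and at 44.0 to 57.0 CPM with NMN, and the median of the list was 0.0070 without water replicate 3. Genes of the unfolded protein and integrated stress response were lower for 16 of 23 (-0.18) and heat shock proteins for 9 of 13 (-0.06), and without water replicate 1 these medians were 0.04 and 0.19. Ribosomal protein genes were lower for 66 of 80 (-0.08) and nuclear genes of oxidative phosphorylation for 62 of 76 (-0.07), and without NMN replicate 4 these medians were 0.01 and 0.00. Mitochondrially encoded genes of oxidative phosphorylation were higher for 6 of 7 (0.05), and zinc finger protein genes for 176 of 272 (0.12), a median that was 0.00089 without NMN replicate 4. Cell proliferation genes were lower for 10 of 16 (-0.11) and pericentral hepatocyte genes for 9 of 13 (-0.09). The pericentral list includes Lect2, above, which was chosen for groups without overlap. The means of this list were 6.77 to 6.82 log2 CPM in the water mice and 6.59 to 6.70 in the NMN mice, without overlap. Periportal hepatocyte genes were lower for 8 of 13 (-0.08), iron handling for 13 of 24 (-0.03) and extracellular matrix for 11 of 16 (-0.05). Bile acid genes were higher for 13 of 22 (0.03), with 0.46 for the phospholipid exporter gene Abcb4, and hypoxia response genes for 7 of 11 (0.04). The medians of the iron handling, extracellular matrix, bile acid, hypoxia response and mitochondrially encoded genes also changed sign without at least 1 of the mice. For reference, fatty acid oxidation was higher for 43 of 51 members (0.24), fatty acid synthesis lower for 19 of 26 (-0.27) and cholesterol synthesis lower for 24 of 26 (-0.48).

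Of the 10 hepatocyte markers, 5 had log2 fold changes above 0 and 5 below, with a median of 0.02. Among them Hnf4a, the gene of a nuclear receptor that maintains hepatocyte identity, stood at 592, 544, 456 and 557 CPM in the water mice and at 826, 840, 1005 and 767 CPM in the NMN mice. Its log2 fold change was 0.68 ± 0.13 (SE, adjusted p = 0.117), the groups did not overlap, and DESeq2 gave an adjusted p of 0.00183. Ttr, another of these markers, went the other way, with a log2 fold change of -0.43 (edgeR, unadjusted p = 0.0126, adjusted p = 0.546). Hnf4a and Ttr were named after their values were seen. All 11 markers of sinusoidal endothelial cells had log2 fold changes above 0, with a median of 0.39, and 6 had an unadjusted p under 0.05 (3.52% of all tested genes were higher at this p), among them the scavenger receptor genes Stab1 (0.61) and Stab2 (0.52). None passed the adjusted threshold in edgeR, where Stab1 had the lowest adjusted p (0.318) and Kdr the highest (0.906). Their summed level was 217, 252, 175 and 174 CPM with water and 259, 276, 297 and 256 CPM with NMN, without overlap, and the most abundant was Clec4g. The part of these cells in the other results was not tested.

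Kupffer cell markers summed to 151 to 240 CPM with water and to 129 to 218 CPM with NMN, with 8 of 11 lower, and stellate cell and cholangiocyte markers also overlapped. The neutrophil markers S100a8 and S100a9 stood at 3.19 to 5.53 CPM in NMN replicates 1 and 2 and at 1.20 CPM or less in the other 6 mice, while Camp had no count. Adipocyte markers summed to 3.47 to 5.46 CPM with water and to 5.71 to 8.54 CPM with NMN, with Fabp4 the most abundant, while the defining markers Lep and Plin1 had no count in any library. Markers of B cells, T cells, antigen-presenting cells, red blood cells, kidney tubule, muscle and mesothelium overlapped between the groups.

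**Figure D4:**
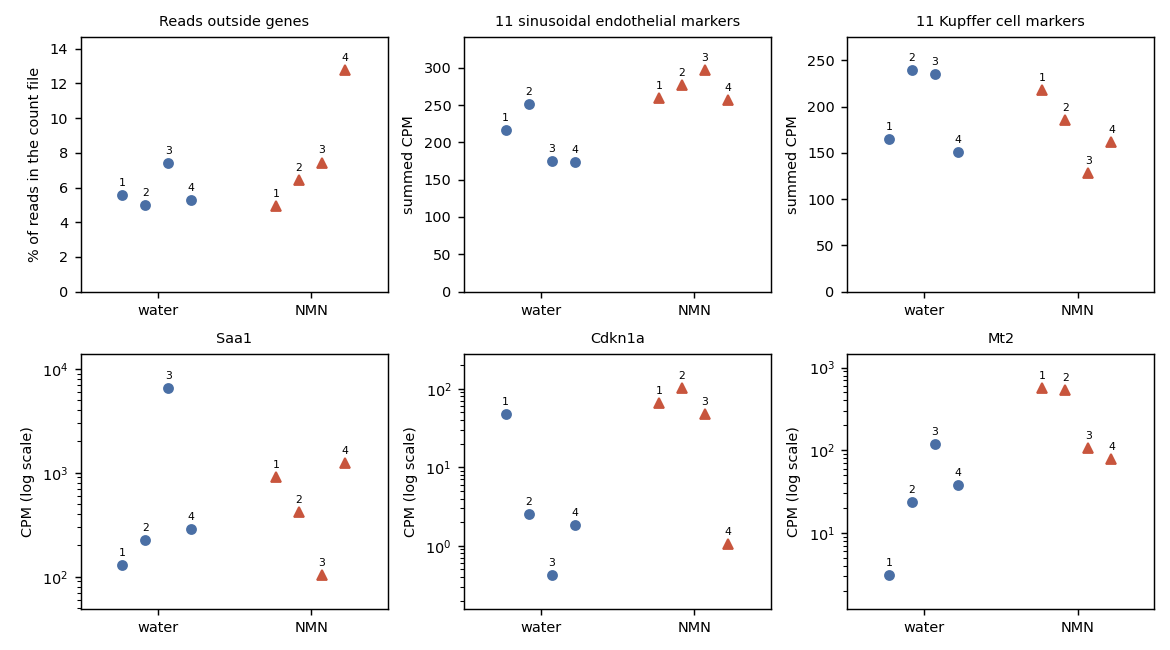
Values per mouse of 3 sample measures (upper row, axes from 0) and of 3 genes that varied within a group (lower row, log axes); circles are water and triangles NMN, numbered by replicate. NMN replicate 4 has 12.8% of reads outside genes, the endothelial marker sums of the groups stand apart, and Saa1 is highest in water replicate 3 while Cdkn1a of water replicate 1 lies with NMN replicates 1 to 3.

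The differences were set beside those of the 2680 mg/kg/d schedule, which has its own NMN and water mice. Of 11982 genes tested in both, 68.4% had the same sign. Of the 842 of these with an unadjusted p under 0.05 at 1340 mg/kg/d, 741 (88.0%) had the same sign at 2680 mg/kg/d, and 409 (48.6%) also had an unadjusted p under 0.05 there with that sign, against 20.8% of all genes. In either direction 25.2% of all genes reached this p there. There 871 genes (7.27%) had an adjusted p under 0.05, and 210 of the 842 did so with the same sign. All 23 leading genes that could be tested there, 11 higher and 12 lower, had the same sign. For Junb, however, the log2 fold change of NMN minus water there was only 0.04. There Plin4 had a log2 fold change of 3.55 ± 0.43, Tmc7 of 2.32 ± 0.31, Lect2 of -1.48 ± 0.15, Gstp3 of -2.38 ± 0.26 and Cela1 of -2.17 ± 0.23. An adjusted p under 0.05 was reached there by 7 of the 11 higher and 7 of the 12 lower genes, but not by Fkbp5 (0.87, adjusted p = 0.166) or Vnn1 (0.70, adjusted p = 0.306), among others. Of the genes called at 1340 mg/kg/d, Il1r1 had a log2 fold change of 1.12 ± 0.19 at 2680 mg/kg/d and Scara5 one of 0.23 ± 0.50 (adjusted p = 0.824), and the difference between the schedules was not called for either (interaction adjusted p = 0.547 and 0.367). In kidneys from the lower dose, 576 of 786 such genes (73.3%) had the sign they had in liver, against 60.1% of all genes, and 135 (17.2%) reached an unadjusted p under 0.05 with that sign, against 6.26% of all genes (8.85% in either direction). The kidneys may come from the same mice as the livers, which the labels do not state, so the organs may not be independent.

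**Figure D5:**
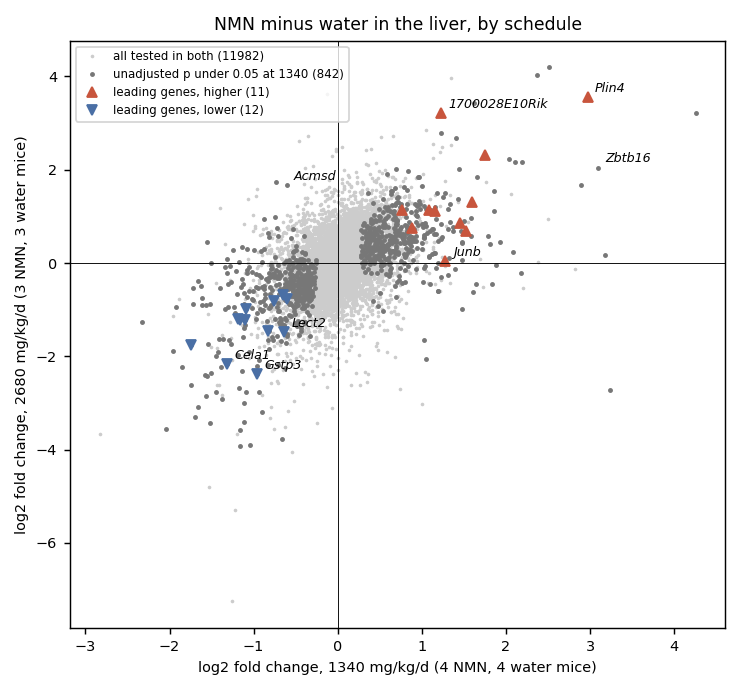
Log2 fold change of NMN minus water in the liver at 1340 mg/kg/d (horizontal, 4 mice a group) and at 2680 mg/kg/d (vertical, 3 mice a group, different controls) for 11982 genes; dark points had an unadjusted p under 0.05 at 1340 mg/kg/d and triangles are the leading genes. Most dark points lie in the lower left and upper right quadrants, and Acmsd lies in the upper left.

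The difference between the schedules was tested as an interaction over all 14 liver libraries, and it passed an adjusted p under 0.05 for 10 of the 13412 genes of that fit, all among the 12449 tested at 1340 mg/kg/d (0.0803% of these). In edgeR 1700028E10Rik was higher in both schedules but 1.99 higher on the log2 scale at 2680 mg/kg/d ± 0.27 (SE, adjusted p = 0.00377). Acmsd had opposite signs, -0.61 at 1340 and 1.67 at 2680 mg/kg/d, a difference of 2.28 ± 0.38 (SE, adjusted p = 0.0262). Raet1e also had opposite signs, 1.04 and -2.06. Macrod1, which removes ADP-ribose from proteins, had a log2 fold change of -0.25 at 1340 mg/kg/d, where it stood at 45.1 to 58.8 CPM with water and at 33.3 to 62.9 CPM with NMN, and of -3.42 at 2680 mg/kg/d. Lipc, Prodh2, Slc44a3, Hyi, Afm and Tmem86b were the other genes of this kind, chosen for naming after their values were seen, and each had the more negative log2 fold change at 2680 mg/kg/d. The higher schedule also had more gavages per day, so dose and frequency cannot be told apart.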

How the data were processed

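The authors aligned the reads with STAR at default settings, used HTSeq-count (strict intersection, strand ignored) for counting, and deposited raw counts for 54446 genes a library. The genome build the study names could not be matched, so gene positions were not taken from the count tables. Gene symbols came from GENCODE M21 by identifier, of which 53229 matched with and 1180 without the version and 37 did not. The 5 summary lines of each count table were removed. Genes with enough counts (filterByExpr) were scaled by TMM and tested in edgeR 4.0.16 (R 4.3.3) by the robust quasi-likelihood test between the 4 NMN and 4 water livers, with Benjamini-Hochberg adjustment over all genes tested. The schedules were compared in a model of all 14 liver libraries with an interaction term. CPM used the scaled library sizes, and log2 CPM a prior count of 2. The 8 libraries held 12688324 to 16455228 counts, which limits the precision of genes with few counts.

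Genes were named by a fixed rule: the 12 genes with the smallest p in each direction among those without overlap and with a mean of at least 1 CPM in one of the groups, outside the sets given in the text, the 3 genes with the smallest p of each list, and a few fixed genes. Other genes were named after their values were seen. The members, lists and rules were chosen with earlier results of these data known. The alternatives were other scalings and filters, no robust estimates, a block for the replicate number, all 14 liver libraries in one fit, DESeq2 1.42.0 with and without the filter, other thresholds and leaving out each mouse. The scripts were tested on simulated data. The labels give mice as replicates without further detail of housing or day, so p-values set a difference against the spread between these mice. In edgeR the spread of a gene is estimated partly from the other genes tested. Library pairs within a group differed by more than counting noise (chi-square per degree of freedom 21.2 to 96.2), so none was treated as a duplicate. One gene named by the rule is not reported here.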

Additional observations from a re-analysis of the deposited data

Results flagged for a closer look

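In groups of 4 mice a single mouse stood apart from the other 3 by Dixon's criterion in 12 of 364 groups examined (3.3%), where chance flags about 1 group in 20. Among the water mice, replicate 1 stood apart for Scara5 (7.99 CPM against 3.78 to 4.40), the ADP-ribose polymerase gene Parp1 (45.0 against 30.1 to 32.6) and the endoplasmic reticulum chaperone gene Hsp90b1 (1958 against 701 to 912). Water replicate 3 stood apart for the glutathione transferase gene Gstt3 (35.9 CPM against 27.3 to 28.7). Water replicate 4 had a mean log2 CPM of 4.12 over the sirtuin and ADP-ribosylation list against 3.99 in the others.

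Among the NMN mice, replicate 4 stood apart for the adenosine receptor gene Adora1 (25.8 CPM against 6.87 to 9.64), the P450 gene Cyp2f2 (724 against 910 to 927) and the matrix gene Sparc (34.2 against 50.2 to 53.2). NMN replicate 1 stood apart for Sirt1 (6.61 CPM against 13.9 to 15.1) and NMN replicate 3 for Mtfp1 (19.3 against 22.6 to 22.7). NMN replicate 2 stood apart for Gm15502 (1.54 CPM against 0.902 to 0.980) and for the summed skeletal muscle markers (1.41 CPM against 0.453 to 0.526).

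The effect of NMN differed between the 1340 and 2680 mg/kg/d schedules, by the interaction test of edgeR, for 1700028E10Rik (a difference of 1.99 on the log2 scale, higher at 2680 mg/kg/d, adjusted p = 0.00377) and for Acmsd (a difference of 2.28, adjusted p = 0.0262).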

How the results depend on the processing

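The number of genes called between NMN and water was 2. It was 44 without the filter, 6 with all 14 liver libraries in one fit, 74 by DESeq2 without the filter, 84 by DESeq2 with it (an alternative chosen after seeing the data), 854 at an unadjusted p under 0.05 and 18 at an adjusted p under 0.10, and from 0 to 18 without single mice. With the replicate block it was 16, but the numbers were not shown to pair the mice: the correlations of same-numbered mice were 0.16, 0.05, -0.03 and -0.02, and not every mouse correlated best with its own number. The number differing between schedules was 10, and 99 by DESeq2 without the filter, and from 7 to 25 without single mice. Differences whose sign changed without a single mouse were total counts (from -290077 to 965557), ambiguous reads (from -0.0377 to 0.631 percentage points), reads without a unique position (from -0.534 to 0.367), and the log2 fold changes of Nampt (from -0.37 to 0.065), Nmnat1 (from -0.026 to 0.084), Nnmt (from -0.44 to 0.26), Gpt (from -0.026 to 0.11), Got1 (from -0.28 to 0.024) and Alb (from -0.0031 to 0.16). The other 117 of the 123 genes named by the rule kept their direction, and 42 of the 123 had a log2 fold change that moved by over 1.5 times or changed sign without 1 mouse. The median of 16 of the 38 lists changed sign under at least 1 alternative. The causes were not tested.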
